A study of Mus musculus with 27 samples.

Results

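The 10 genes described here encode airway mucins and the goblet cell programme that makes them, and were taken by their symbols from the 56941 genes of the deposited tables. They are Muc5ac, Muc5b, Clca1, Fcgbp, Agr2, Spdef, Foxa3, Itln1, Gcnt3 and Tff2, each matched to 1 row, and all 10 passed the filter on low counts, as did 24629 genes in all, though Itln1 and Gcnt3 passed it only through HDM libraries. Whole lungs of 27 mice were profiled by polyA-selected RNA sequencing. All were male wild type C57Bl/6 mice, aged 7 to 8 weeks, and all received 5 oropharyngeal instillations of 50 µl at intervals of 2 to 3 days. These held 10 µg of house dust mite extract (HDM), a protein allergen mixture used to induce allergic airway inflammation, or phosphate-buffered saline (PBS). At 24 h after the last one, every mouse received 100 µl of saline alone (SAL) or of saline with combustion products (CP) of burned paper, plastic and plywood at 2 mg per ml, and lungs were frozen 24 h later. This gave 6 mice in HDM_SAL and 7 each in HDM_CP, PBS_CP and PBS_SAL, and a library is written as its group with the number from its title. Libraries held 56.3 M to 84.5 M estimated counts (M, mega), and levels are given in transcripts per M (TPM), which correct for gene length.

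Mucus on the airway surface is a gel of water and very large glycoproteins, chiefly MUC5AC and MUC5B, made by goblet and other secretory cells. In allergic inflammation, interleukin-13 acting through STAT6 drives secretory cells of mouse airways toward a goblet cell state, in which SPDEF and FOXA3 are transcriptional regulators and MUC5AC is strongly induced. CLCA1, FCGBP, TFF2 and intelectin 1 are secreted with the mucins, AGR2 is a protein disulfide isomerase needed for mucin folding, and GCNT3 builds branched mucin glycans.

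After HDM alone, 7 of the 10 genes rose against PBS_SAL, where 3.19% of all genes tested rose, and the other 3, Foxa3, Itln1 and Gcnt3, did not pass the test. The largest fitted difference among them was that of Clca1, at 7.51 ± 1.29 on the log2 scale (SE), and the median over the 10 genes, Itln1 and Gcnt3 included, was 3.99, against 0.01 over all genes. Combustion products given after PBS or after HDM changed none of the 10 at the threshold used, an adjusted p under 0.05 (edgeR's quasi-likelihood F test, adjusted by Benjamini and Hochberg's method over all genes). The library labelled PBS_CP 57 lay above all other PBS libraries in 7 of the 10 genes, at levels found in HDM libraries, and lay apart from the other PBS_CP libraries by Dixon's criterion in 5 of them. Whether its label is right could not be checked with the data used here, so results that it touches are given with and without it. Without it, 7 of 10 rose in HDM_SAL against PBS_SAL as well, where 3.02% of all genes did. Because whole lung was sequenced, more goblet cells and more RNA per cell cannot be told apart.

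**Figure D1:**
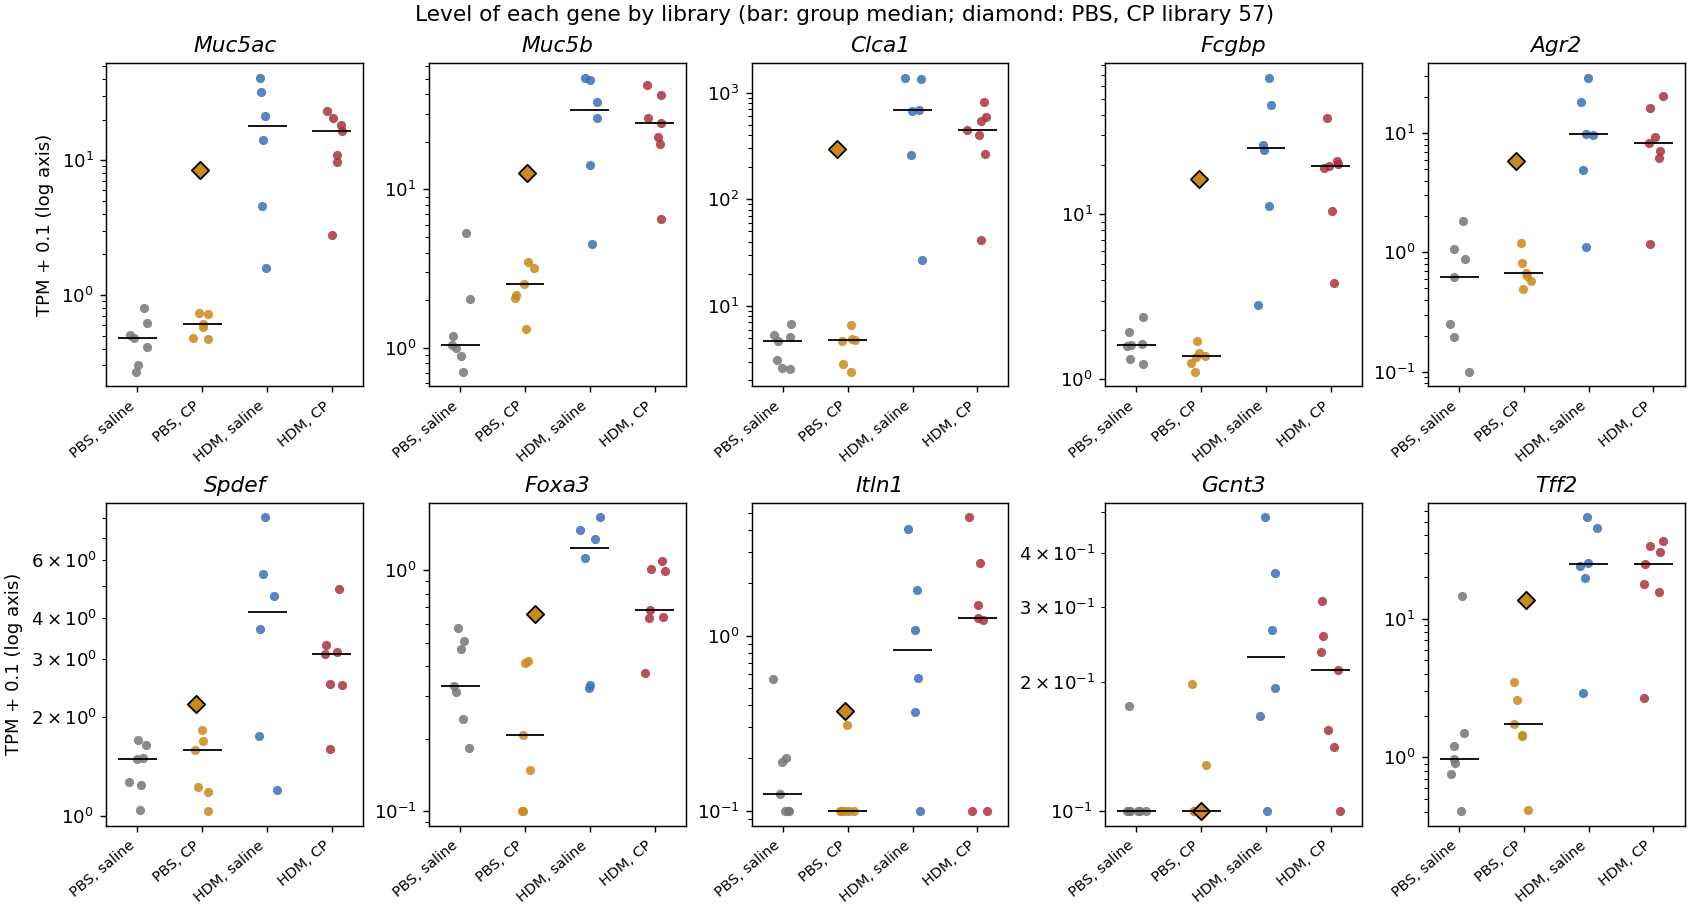
Level of each of the 10 genes in every library, as TPM + 0.1 on a log axis, by group; bars are group medians and the diamond is PBS_CP 57. In the panel of Muc5ac the 6 HDM_SAL libraries lie between 1.48 and 40.9 TPM, and the 7 PBS_SAL libraries at 0.701 TPM or lower.

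The transcriptional regulators had the smallest log2 differences of the 10. Spdef (chromosome 17, 27933326 to 27947929, minus strand, on GRCm39, as all gene positions here), the ETS factor gene required for goblet cell differentiation, lay between 0.944 and 1.60 TPM in PBS_SAL with a median of 1.39. In HDM_SAL it ranged from 1.10 to 7.96 TPM with a median of 4.07. The 2 groups overlapped only through HDM_SAL 52, the lowest library of its group. Spdef rose by 1.74 ± 0.32 on the log2 scale (adjusted p = 0.00197), and by 1.38 without HDM_SAL 54, its highest library. Foxa3 (chromosome 7, 18747209 to 18757463, minus strand), a forkhead factor gene, had a median of 0.232 TPM in PBS_SAL (range 0.0830 to 0.477) and of 1.14 TPM in HDM_SAL (range 0.224 to 1.56). Its difference of 1.81 ± 0.62 did not pass (adjusted p = 0.0846), and HDM_SAL 52 and 100 lay within the PBS_SAL range.

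The RefSeq promoter table (build GRCm38.p6, another build than that of the expression files) held 5 of the 10 genes: Fcgbp, Agr2, Spdef, Foxa3 and Itln1. The 250 bases before the start are shown for the 3 of these that rose, to show what their upstream sequences hold of the sites read by STAT6-type and forkhead factors. Letters were searched on both strands: TTCNNNNGAA, the spacing preferred by STAT6, present in 5.85% of 32851 promoters of this length, and the forkhead cores TGTTTAC (3.17%) and TATTTAC (2.73%), no pair of which can match at the same place. The 1 match among the 5 genes was TATTTAC in the promoter of Spdef, on the opposite strand and 47 to 41 bases before the start, and it is in capitals.
Spdef (chr17:27728952-27729201, minus strand): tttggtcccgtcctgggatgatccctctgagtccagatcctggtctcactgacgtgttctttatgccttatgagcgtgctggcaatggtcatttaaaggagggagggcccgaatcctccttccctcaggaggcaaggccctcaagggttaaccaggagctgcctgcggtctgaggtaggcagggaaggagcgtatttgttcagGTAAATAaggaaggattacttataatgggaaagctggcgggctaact
Agr2 (chr12:35992675-35992924, plus strand): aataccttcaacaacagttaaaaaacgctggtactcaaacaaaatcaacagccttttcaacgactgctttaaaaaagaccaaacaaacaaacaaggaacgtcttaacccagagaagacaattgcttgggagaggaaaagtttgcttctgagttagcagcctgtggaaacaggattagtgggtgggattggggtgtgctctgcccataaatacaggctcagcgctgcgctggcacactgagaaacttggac
Fcgbp (chr7:28070986-28071235, plus strand): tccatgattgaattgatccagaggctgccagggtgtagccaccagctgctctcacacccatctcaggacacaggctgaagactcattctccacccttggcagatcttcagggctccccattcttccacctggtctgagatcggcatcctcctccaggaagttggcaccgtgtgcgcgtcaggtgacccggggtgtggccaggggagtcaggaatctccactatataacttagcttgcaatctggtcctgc
A match describes letters in this window, and binding was not measured in these mice. Only these exact letters were searched, so a promoter without a match may hold other forms of such sites.

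Both gel-forming mucins rose after HDM. Muc5ac (chromosome 7, 141342709 to 141372968, plus strand), the inducible mucin of airway goblet cells, had a median of 0.380 TPM in PBS_SAL (range 0.170 to 0.701) and of 17.8 TPM in HDM_SAL (range 1.48 to 40.9). Every HDM_SAL library lay above every PBS_SAL library, a pattern found for 1.17% of all genes and, among the 10, for Muc5ac, Clca1 and Fcgbp. Muc5ac rose by 5.74 ± 0.90 (adjusted p = 0.000714). Muc5b (chromosome 7, 141392807 to 141426821, plus strand), its neighbour in the genome and the mucin needed for baseline airway clearance, had a median of 0.945 TPM in PBS_SAL (range 0.611 to 5.23) and of 31.6 TPM in HDM_SAL (range 4.45 to 50.5). PBS_SAL 105, at 5.23 TPM, lay above HDM_SAL 52, and the remaining libraries of the 2 groups were separate. The log2 difference of Muc5b was 4.29 ± 0.67 (adjusted p = 0.000675).

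The ratio of the 2 mucins was chosen after their values were seen and is given as a description, with no test. Muc5b TPM divided by Muc5ac TPM had a median of 3.59 in PBS_SAL (range 2.11 to 7.46) and of 1.82 in HDM_SAL (range 1.24 to 3.15), and these 2 groups overlapped. The median was 2.01 in HDM_CP (range 1.29 to 2.61). In PBS_CP it was 5.05 with library 57 (range 1.50 to 6.06, the lowest being that library) and 5.10 without it (range 3.24 to 6.06). All 7 HDM_CP libraries lay below the 6 PBS_CP libraries other than 57.

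**Figure D2:**
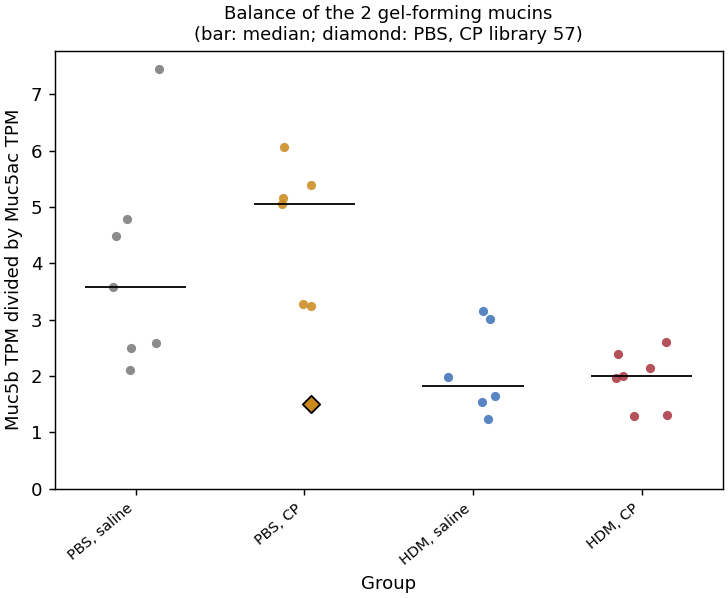
Muc5b TPM divided by Muc5ac TPM in each library, by group, on a linear axis from 0; bars are medians and the diamond is PBS_CP 57. The medians are 3.59 in PBS_SAL, 5.05 in PBS_CP, 1.82 in HDM_SAL and 2.01 in HDM_CP.

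Of the secreted proteins that accompany the mucins, Clca1, Fcgbp and Tff2 rose in HDM_SAL. Clca1 (chromosome 3, 144709578 to 144738537, minus strand), a secreted metalloprotease of goblet cells, had the highest level per length of the 10 genes, with a median of 4.59 TPM in PBS_SAL (range 2.48 to 6.60) and of 683 TPM in HDM_SAL (range 27.1 to 1383). The lowest HDM_SAL library, 52, still lay above all 7 PBS_SAL libraries (adjusted p = 0.00151). Fcgbp (chromosome 7, 27770661 to 27820287, plus strand), a mucin-like protein that binds the gel, went from a median of 1.52 TPM (range 1.15 to 2.28) to 25.2 TPM (range 2.72 to 67.0), and rose by 4.88 ± 0.84 (adjusted p = 0.00153). Tff2 (chromosome 17, 31360023 to 31363256, minus strand), a trefoil peptide of mucus-secreting epithelia, went from a median of 0.864 TPM to 24.8 TPM in HDM_SAL (range 2.84 to 53.9). PBS_SAL 105 held Tff2 at 14.6 TPM, and the other 6 PBS_SAL libraries at 1.40 TPM or lower. Tff2 rose by 3.46 ± 0.85 (adjusted p = 0.0173) and by 5.11 without PBS_SAL 105. Without HDM_SAL 54 its call was lost (3.14, adjusted p = 0.0507).

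Itln1 (chromosome 1, 171345690 to 171362862, minus strand) encodes a lectin that binds microbial sugars. It was at 0 in 3 of 7 PBS_SAL libraries and at 0.463 TPM in the highest, PBS_SAL 104, and had a median of 0.725 TPM in HDM_SAL (range 0 to 3.97). Its difference of 3.69 ± 1.19 did not pass (adjusted p = 0.0678).

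Of the processing genes, Agr2 (chromosome 12, 36042906 to 36054086, plus strand) rose and Gcnt3 (chromosome 9, 69938778 to 69945370, minus strand) did not pass. Agr2 had a median of 0.527 TPM in PBS_SAL (range 0 to 1.73) and of 9.67 TPM in HDM_SAL (range 1.01 to 29.1), with PBS_SAL 105 above HDM_SAL 52. It rose by 4.38 ± 0.82 (adjusted p = 0.00258), and its call was lost with limma voom and quality weights (adjusted p = 0.0716). Gcnt3 was the lowest of the 10, at 0 in 6 of 7 PBS_SAL libraries and at a median of 0.129 TPM in HDM_SAL (range 0 to 0.385). Its difference of 3.67 ± 1.15 did not pass (adjusted p = 0.0581), and rests on few reads: a count of at least 10 was reached in 2 of 14 PBS and 9 of 13 HDM libraries, and for Itln1 in 2 and 10. The 2 genes entered the test through the HDM libraries, so that a call of either would be no support.

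The HDM libraries differed widely among themselves, and the 10 genes did so together. HDM_SAL 52 was the lowest, or tied for it, of its group in 9 of the 10 genes, and HDM_SAL 54 the highest in 9. HDM_CP 66 was the lowest or tied in all 10 of the genes, while the highest place was shared by HDM_CP 96 (5 genes), 49 (3 genes) and 98 (2 genes). In HDM_SAL 52 Clca1 stood at 27.1 TPM, against 258 TPM or more in the other 5. In HDM_CP 66 it stood at 41.7 TPM, against 267 TPM or more in the other 6. Both low libraries held Il13, the gene of the goblet cell-inducing cytokine, within the range of their groups, at 1.05 TPM in HDM_SAL 52 (group range 0.0992 to 1.71) and 1.52 TPM in HDM_CP 66 (group range 0.428 to 3.76). The 13 club cell markers, genes of the main secretory cell of mouse airways, summed to 90417 TPM in HDM_SAL 52 (group range 78731 to 148163) and to 77971 TPM in HDM_CP 66, the median of its group. Scgb1a1 alone made up 85.6% to 90.5% of this sum. Of the 15 ciliated cell markers, 10 were at their lowest of the group in HDM_CP 66, among them Foxj1, Dnah5 and Dnah9. Sec14l3, of the same list, was at its highest of the group there, at 1175 TPM. In HDM_SAL 52, 4 of the 15 were at their lowest (Rsph1, Dynlrb2, Tmem212 and Ccdc153). HDM_SAL 54, the library highest in the 10 genes, also had the highest sums of club cell markers, at 148163 TPM, and of the 15 ciliated cell markers, at 2817 TPM, of all libraries. The part of airway content in the levels of these 3 libraries was not tested. Without HDM_SAL 52, all 10 of the genes were called higher in HDM_SAL against PBS_SAL, where 3.84% of all genes were. Itln1 and Gcnt3, which entered the test only through HDM libraries, are among these, and without them it was 8 of 8. Without HDM_SAL 54, 6 of the 10 were, where 1.84% of all genes were. Both libraries were singled out by their levels of these same genes, so these counts are no further support.

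Over the 13 HDM libraries, with each group's mean removed, Muc5ac varied most closely with Muc5b (Pearson r = 0.97, Spearman rho = 0.93) and Fcgbp (r = 0.97, rho = 0.86). Clca1 followed at r = 0.96, Agr2 at 0.95, Tff2 at 0.94, Spdef at 0.92 and Foxa3 at 0.90, and Gcnt3 (0.87) and Itln1 (0.80) were the least alike. Without the 2 libraries farthest from the median of Muc5ac these values lay between 0.83 and 0.90 for the first 7 of them, and fell to 0.54 for Gcnt3 and 0.58 for Itln1. Among 14830 other genes, those most like Muc5ac were Bpifb1, a secreted airway defence protein (r = 0.96), Pigr, the transporter of secretory antibodies (0.95), Nek2 (0.95), Chil4 (0.93) and Tmc5 (0.93). Those most like Clca1 were Bpifb1 (0.97), Retnla (0.95), Scgb3a1, a secretoglobin of secretory cells (0.95), Nek2 (0.93) and Ybx2 (0.93). Without the 2 libraries farthest from the median of Muc5ac or Clca1, r fell to 0.77 for Chil4, 0.76 for Retnla and 0.67 for Scgb3a1, and lay between 0.82 and 0.92 for the others. These correlations describe 13 libraries that share 1 scaling, and no test was made of them.

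**Figure D3:**
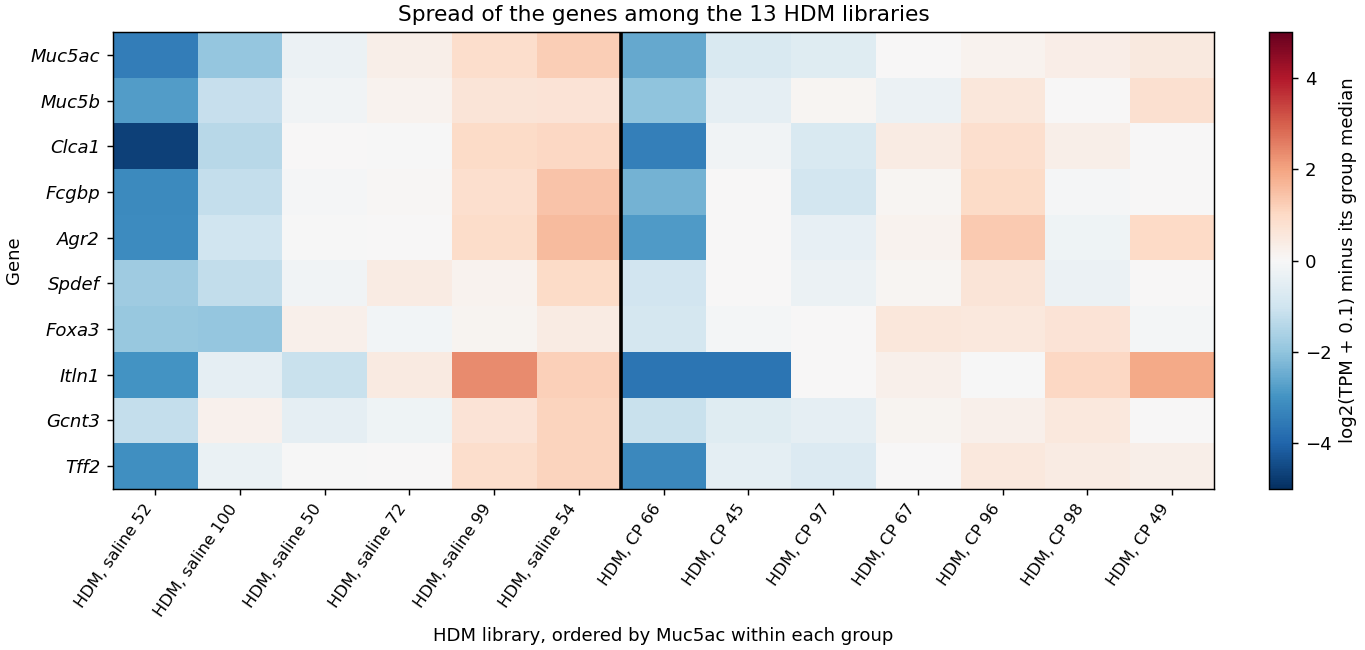
Difference of log2(TPM + 0.1) from its group median for the 10 genes (rows) in the 13 HDM libraries (columns, ordered by Muc5ac within each group; blue is lower, red is higher). HDM_SAL 52 and HDM_CP 66 are the lowest columns, with Clca1 at 27.1 and 41.7 TPM.

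In PBS mice, combustion products changed 0 of the 10 genes by edgeR, where 0.00812% of all genes tested changed in either direction. DESeq2 and limma voom also called 0. Of the 10, 2 had an unadjusted p under 0.05 by edgeR, and the share of all genes under it is not given here. The largest fitted differences, those of Clca1, Muc5ac and Fcgbp, came from PBS_CP 57. Its Clca1 stood at 297 TPM, against 2.32 to 6.50 TPM in the other 6 PBS_CP libraries, and its Muc5ac at 8.39 TPM, against 0.371 to 0.635 TPM. It lay above all 13 other PBS libraries in 7 of the 10 genes, Muc5ac, Muc5b, Clca1, Fcgbp, Agr2, Spdef and Foxa3, and not in Itln1, Gcnt3 (listed at 0) or Tff2. For Clca1, 9 of the 13 HDM libraries were higher than it and 4 lower. The log2 difference of Clca1 was 3.45 ± 1.08 (adjusted p = 0.563) with this library and 0.01 ± 0.62 without it (95% interval -1.28 to 1.30). For Muc5ac it was 2.11 ± 0.81 with and 0.37 ± 0.63 without (interval -0.93 to 1.67), and for Fcgbp 1.55 ± 0.76 with and -0.22 ± 0.55 without. Differences of 3 genes grew without it, from -0.51 to -1.04 for Foxa3, from -0.40 to -1.36 for Itln1 and from 0.51 to 0.72 for Gcnt3, and 0 of them had an unadjusted p under 0.05. Over the 10 genes the median went from 0.85 to 0.06, and without library 57, 0 of 10 were called or had an unadjusted p under 0.05, where 0.00814% of all genes changed. Muc5b, at 2.35 ± 0.79 TPM in PBS_CP without 57 (SD, n = 6) and 1.64 ± 1.64 TPM in PBS_SAL (SD, n = 7), had a log2 difference of 0.52 ± 0.54 without 57. These PBS_SAL values include library 105, at 5.23 TPM, without which PBS_SAL was at 1.04 ± 0.46 TPM (SD, n = 6). With 57 kept and PBS_SAL 105 left out, the log2 difference of Muc5b was 1.85, and 0 of the 10 genes were called. No fit left out both libraries.

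Some other secretory genes were also high in PBS_CP 57, and some were not. Chil4, an epithelial and macrophage chitinase-like gene with the near-identical paralog Chil3, was at 81.4 TPM there and at 5.72 TPM or lower in the other PBS_CP libraries. Bpifb1 was at 52.1 TPM (11.3 or lower in the others), Pigr at 82.1 TPM (38.0 or lower) and Scgb3a1 at 112 TPM (57.1 or lower). Of other secreted mucus proteins, Clca3a1 was lower there, at 1.30 TPM, than in the other PBS_CP libraries (1.36 or higher). Bpifa1, at 5.50 TPM, lay within their range (0.972 to 29.6), and Retnlb was at 0. Il13 stood at 0.178 TPM, the median of PBS_CP, and the club and ciliated cell marker sums, at 96406 and 2326 TPM, lay within the range of PBS_SAL. Most of that ciliated sum was Sec14l3 (1122 TPM) and Tppp3 (560 TPM), both within the range of PBS_SAL. Single markers did not all do so: 8 of the 15 ciliated cell markers, Foxj1 among them, and 5 of the 13 club cell markers were above every PBS_SAL library in PBS_CP 57. Cbr2, another club cell marker, was below every PBS_SAL library there, at 4919 TPM against 5711 TPM or more. The part of airway content in the levels of PBS_CP 57 was not tested. PBS_SAL 105 showed another set, with Muc5ac, Muc5b, Agr2 and Tff2 at their highest of the group, Scgb3a1 at 281 TPM (15.4 or lower in the other PBS_SAL libraries) and Bpifb1 at 35.4 TPM (4.92 or lower), while its Clca1 lay within the group's range. Of the basal and squamous epithelial markers, Krt13 was at 4.79 TPM in PBS_SAL 105 (0.541 or lower in the other PBS_SAL libraries). Krt4 was at 2.93 TPM there (0.318 or lower in the others). Krt5 and Aqp3 were also at their highest of the group in PBS_SAL 105, while Krt14, Trp63, Krt15, Sprr1a and Dapl1 lay within the group's range. The part of tissue content in the levels of PBS_SAL 105 was not tested.

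After HDM, combustion products changed 0 of the 10 genes by edgeR (0 had an unadjusted p under 0.05), where 0.00406% of all genes changed, and DESeq2 and limma voom called 0. Muc5ac had medians of 17.8 TPM in HDM_SAL and 16.4 TPM in HDM_CP (range 2.68 to 23.3), and a log2 difference of -0.47 ± 0.73 (95% interval -1.97 to 1.04). Muc5b had a median of 26.3 TPM in HDM_CP (range 6.40 to 45.8), with a difference of -0.24 ± 0.59 (interval -1.47 to 0.99). Clca1 had a median of 450 TPM (range 41.7 to 812), with a difference of -0.78 ± 0.99 (interval -2.83 to 1.28). The groups overlapped in every one of the 10 genes. Fitted differences were negative for 9 of 10, all but Itln1 (0.24 ± 0.99), with a median of -0.48, against 0.00 over all genes. Beside this, all 13 club cell and all 15 ciliated cell markers had negative fitted differences in the same comparison (medians -0.40 and -0.33), with 0 called in either list. Positive differences were also found for 0 of 9 heart muscle markers (median -0.73) and 1 of 9 general epithelial markers (median -0.14). Of the alveolar type 2 markers, 6 of 10 were positive (median 0.06). The part of airway content in the values of the 10 genes was not tested. Without library 57, 0.00407% of all genes were called and 0 of the 10.

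The intervals leave wide room: for Spdef, the most precisely measured of the 10, the difference of -0.49 ± 0.31 had an interval of -1.13 to 0.15. For Agr2 it was -0.38 ± 0.69 (-1.80 to 1.03), for Fcgbp -0.73 ± 0.72 (-2.21 to 0.75) and for Tff2 -0.38 ± 0.76 (-1.94 to 1.18).

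**Figure D4:**
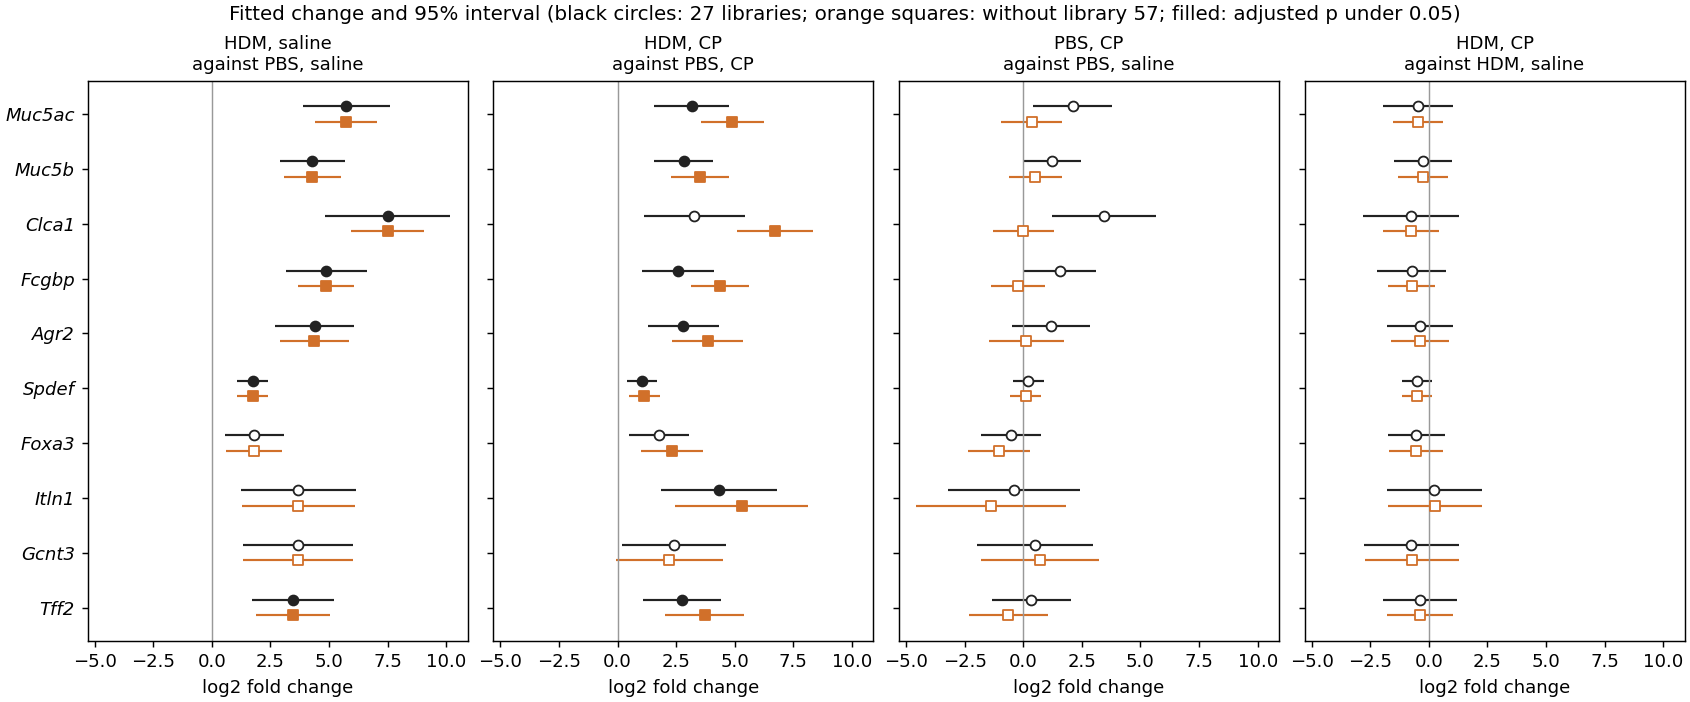
Fitted log2 fold change (points) with its 95% interval (lines) of the 10 genes in 4 comparisons, over all 27 libraries (black) and without PBS_CP 57 (orange); filled points had an adjusted p under 0.05. Clca1 in HDM_CP against PBS_CP is at 3.28 with and 6.72 without that library.

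Among mice given combustion products, HDM against PBS gave 7 of the 10 genes higher, where 5.6% of all genes tested rose. These were Muc5ac (3.16 ± 0.77, adjusted p = 0.0117), Muc5b, Fcgbp, Agr2, Spdef, Itln1 and Tff2. Without Itln1, which entered the test through HDM libraries alone, they were 6 of the 8 genes that did not. Clca1 (3.28 ± 1.05, adjusted p = 0.0544), Foxa3 (1.77 ± 0.62, adjusted p = 0.0775) and Gcnt3 (2.42 ± 1.08, adjusted p = 0.19) did not pass. No gene of the 10 had every HDM_CP library above every PBS_CP library, as 1.41% of all genes did. Without PBS_CP 57, 5 of them did (Muc5ac, Muc5b, Clca1, Fcgbp and Agr2), beside 1.86% of all genes. Without it, 9 of the 10 were called higher, all but Gcnt3 (8 of 8 without Itln1 and Gcnt3), where 4.96% of all genes were. Clca1 was then at 6.72 ± 0.77 (adjusted p = 1.78e-05) and Muc5ac at 4.90 ± 0.65 (adjusted p = 8.96e-05). The count with all libraries was unsteady in the other direction too, at 3 or 4 when any of PBS_CP 58, 59, 75, 76 or 101 or HDM_CP 49, 67, 96 or 98 was left out. The share of all genes called in those settings is not given here. This comparison shares the HDM_CP and PBS_CP libraries with those above.

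Whether the effect of combustion products differed between HDM and PBS mice was tested as an interaction, and 0 of the 10 genes were called by edgeR, as 0% of all genes were, with and without library 57. An unadjusted p under 0.05 was reached by 3 of them with all libraries (Muc5ac, Clca1 and Fcgbp) and by 0 without PBS_CP 57. The share of all genes that reached it is not given here. DESeq2 and limma voom called 0 of the 10. The interaction of Clca1 was -4.22 ± 1.45 (adjusted p = 0.742) with that library and -0.78 ± 0.85 without it. For Muc5ac it was -2.57 ± 1.09 with and -0.83 ± 0.81 without.

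Genes of the wider mucus pathway were read in 9 lists, in HDM_SAL against PBS_SAL, where 3.19% of all genes rose and 2.25% fell. Of 12 other mucin genes tested 4 were called higher and 0 lower. The membrane mucins Muc4 (1.47 ± 0.26), Muc20 (1.01 ± 0.19) and Muc1 (0.40 ± 0.09) rose. The fourth, Mucl1, entered the test only through HDM libraries, and was listed at 0 in all 7 PBS_SAL libraries and at 0.127 to 0.637 TPM in HDM_SAL. Of 13 other secreted mucus proteins 6 were called higher, led by Pigr (2.86 ± 0.33, median 19.1 TPM in PBS_SAL and 158 TPM in HDM_SAL) and Chil4 (6.01 ± 0.98). Among them Retnlb, a goblet cell resistin-like gene, and Tff1, a trefoil peptide gene, also entered only through HDM libraries. Both were listed at 0 in all 7 PBS_SAL libraries, with medians of 1.79 and 0.128 TPM in HDM_SAL. Without PBS_CP 57, 5 of the 13 secreted proteins were called, and Tff1 was not. Among 22 transcription factor and fate genes, 6 rose, including the epithelial ETS factor genes Elf3 (0.87 ± 0.16) and Ehf (0.66 ± 0.11), and 2 fell, which were Notch1 and Notch3.

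Genes of mucin assembly and release were read in the remaining lists. Of 32 glycosylation enzymes 3 rose, led by the fucosyltransferase gene Fut2 (1.73 ± 0.34). Of 18 folding and endoplasmic reticulum genes 5 were called higher, among them Sdf2l1 (0.77 ± 0.14). Another was Ern2, the mucous cell form of the stress sensor IRE1, which entered only through HDM libraries, at 0 in 6 of 7 PBS_SAL libraries and at a median of 1.46 TPM in HDM_SAL. Of 23 granule exocytosis genes 1 rose, Rab27b (0.56 ± 0.09), and 1 fell, Vamp2 (-0.18 ± 0.05), counts near the shares of all genes. Of 15 ion transport genes 4 rose, the largest difference being that of Slc26a4, the anion exchanger pendrin, at 4.25 ± 0.50 (adjusted p = 6.43e-05), whose lowest HDM_SAL library held 28.4 TPM and whose highest PBS_SAL library held 4.54 TPM. Of 20 interleukin-13 and interleukin-4 genes 4 were called higher, of which Il13 and the decoy receptor gene Il13ra2 entered only through HDM libraries. Il13 was at 0 in 5 of 7 PBS_SAL libraries and at 0.359 TPM in the highest, against a median of 1.02 TPM in HDM_SAL. Of 14 EGF receptor genes 0 were called (edgeR). Medians of the 9 lists lay between -0.02 and 0.22, except 2.26 for the secreted proteins, beside 0.01 over all genes.

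In HDM_CP against PBS_CP, where 5.6% of all genes rose and 2.27% fell, the genes called higher were 4 of 12 other mucins, 9 of 13 secreted proteins, 5 of 22 transcription factor and fate genes and 7 of 32 glycosylation enzymes. They were also 9 of 18 folding genes, 2 of 23 exocytosis genes (with 2 lower), 4 of 15 ion transport genes, 9 of 20 interleukin-13 and interleukin-4 genes and 1 of 14 EGF receptor genes. Of these calls, those of Mucl1, Retnlb, Tff1, Il13 and Il13ra2 entered only through HDM libraries. Without PBS_CP 57, 4 of the 32 glycosylation enzymes were called, and 0 of the 14 EGF receptor genes. Combustion products against saline gave 0 of the 168 genes of these lists called by edgeR, in PBS mice and in HDM mice. An unadjusted p under 0.05 was reached by 15 of them in PBS mice, all higher. In HDM mice it was reached by 27, of which 22 were higher. The share of all genes that reached it is not given here, so these counts cannot be set against a general rate.

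Markers of other cell types that the tissue could hold were read beside the 10 genes. The alveolar type 2 markers, which define lung tissue, summed to between 31801 and 41404 TPM over all libraries, and 2 of 10 rose in HDM_SAL against PBS_SAL (Sftpa1 and Sftpd). In the same comparison 3 of 9 general epithelial markers rose, with 8 of 9 fitted differences positive and a median of 0.21, where 3.19% of all genes rose. Of the ciliated cell markers 2 of 15 rose, with 13 of 15 positive and a median of 0.42, and of the club cell markers 2 of 13, with 6 of 13 positive. The part of epithelial content in the rise of the 10 genes was not tested. Of the gastric and gut markers 2 of 6 tested were called higher, Tff1 and Reg3g. Tff1 entered the test only through HDM libraries, and was at 0 in 3 of 6 HDM_SAL libraries. Without PBS_CP 57, 1 of the 6 markers was called, Reg3g. Gkn1 and Gkn2, which define gastric surface cells, were at 0 in every library. Gkn3 lay between 1.11 and 5.20 TPM and Muc6 between 0.711 and 1.52 TPM over all libraries. Of 8 basal and squamous epithelial markers tested 1 was called higher, Aqp3. Thyroid and mesothelial markers had 0 called. Of 12 salivary and submucosal gland markers 3 were tested, and 0 of these were called. PBS_CP 58 held the salivary genes Mucl2 at 49.1 TPM, Prol1 at 6.39 TPM and Pip at 2.79 TPM, which were at 0 in all PBS_SAL libraries. The sum of this list was highest in PBS_CP 76, at 647 TPM, against 391 TPM or lower in PBS_SAL. Lyz1 made up most of that sum. It was at 265 TPM or more in every library and reached 640 TPM in PBS_CP.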

How the data were processed

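Whole-lung RNA of 27 mice in 4 groups was sequenced after polyA selection, with 20 M read pairs of 150 bases planned, per the labels' protocols. Tools in the submitters' processing notes are StringTie 2 and STAR (version not given in the sources used here), with build GRCm39. The deposited estimated counts are whole numbers that sum to 56.3 M to 84.5 M per library, 3 to 4 times the pairs planned. No source used here says why, and an alternative divided them by 4. The deposited TPM values were scaled by the authors to sum to between 999899 and 999999, and were used for levels. Genes without a symbol (310, with 0.0602% of the counts) were kept in the library sizes and the tests.

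Differences were tested on the estimated counts with edgeR 4.0.16 in R 4.3.3 (filterByExpr with a minimum count of 10, TMM, a model of 4 group means, robust quasi-likelihood F tests, two-sided), with Benjamini-Hochberg adjustment over 24629 genes and a threshold of 0.05. The steps were tested on simulated counts with the same dispersion for all genes and no outlying library. That simulation does not show how they behave for the 10 genes, whose libraries differ widely. Alternatives used DESeq2 1.42.0 and limma 3.58.1 among others. Nothing in the labels shows whether mice shared a litter, cage or day, so p-values measure the spread between these libraries. The 10 genes and the lists were chosen with earlier results of these data known, and the ratio of Muc5b to Muc5ac after its values were seen. A gene is said to enter the test only through HDM libraries where fewer than 6 PBS libraries reached the filter's minimum. Genes named from lists are those called with the smallest p in HDM_SAL against PBS_SAL, up to 4 a list, and genes like Muc5ac or Clca1 the 5 with the highest correlation among genes whose mean log2 CPM reached 1.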

Additional observations from a re-analysis of the deposited data

Results flagged for a closer look

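A library lay apart from the rest of its group, by Dixon's criterion on log2(TPM + 0.1), in 14 of 40 sets of 1 gene in 1 group. Chance alone gives about 1 in 20, and the 10 genes vary together, so that the sets are not independent. PBS_CP 57 was high in 5 genes, with Muc5ac at 8.39 TPM, Muc5b at 12.6 TPM, Clca1 at 297 TPM, Fcgbp at 16.3 TPM and Agr2 at 5.74 TPM. HDM_CP 66 was low in 4 genes, with Muc5ac at 2.68 TPM, Clca1 at 41.7 TPM, Agr2 at 1.07 TPM and Tff2 at 2.58 TPM. HDM_SAL 52 was low in Tff2, at 2.84 TPM. PBS_SAL 105 was high in Tff2, at 14.6 TPM. The remaining 3 were weakly expressed genes in PBS libraries: Itln1 in PBS_SAL 104 at 0.463 TPM, Gcnt3 in PBS_SAL 81 at 0.0762 TPM, where all other libraries of the group were at 0, and Gcnt3 in PBS_CP 101 at 0.0975 TPM.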

How the results depend on the processing

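Calls were recomputed under 14 other settings and with each of the 27 libraries left out. In HDM_SAL against PBS_SAL the count of 7 genes called ranged from 5 to 9 over the other settings and from 6 to 10 over the libraries left out. The share of all genes called higher moved as well, at 1.84% where 6 were called (without HDM_SAL 54) and 3.84% where 10 were (without HDM_SAL 52). The 10 include Itln1 and Gcnt3, which entered the test only through HDM libraries. For most settings, here and in HDM_CP against PBS_CP, that share is not given. With a log2 fold limit of 1, Spdef (adjusted p = 0.888) and Tff2 (adjusted p = 0.465) were not called there. In HDM_CP against PBS_CP the count of 7 fell to 3 with no filter on low counts and to 0 with a log2 fold limit of 1, and ranged from 3 to 9 over the libraries left out. The cause was not tested. All settings gave 0 called in the comparisons of combustion products with saline and, where it could be fitted, in the interaction.

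Directions of called differences held in every setting. Some uncalled ones turned. Over the libraries left out, PBS_CP against PBS_SAL ranged from -0.22 to 1.73 for Fcgbp and from -0.63 to 1.99 for Tff2, both lowest without PBS_CP 57, from -1.36 to 0.84 for Itln1 and from -1.28 to 4.50 for Gcnt3. Itln1 was at 1.39 there without the 3 libraries with the lowest totals. In HDM_CP against HDM_SAL, Muc5ac turned to 0.10 and Muc5b to 0.048 with limma voom, and Muc5ac to 0.047 with log2(TPM + 0.1). Over the libraries left out, Agr2 ranged from -0.68 to 0.14 and Itln1 from -0.34 to 1.06. In the interaction, Foxa3 turned to 1.42 with limma voom, 0.37 with log2(TPM + 0.1) and 0.33 without the 3 libraries with the lowest totals, where Itln1 was at -1.15. Over the libraries left out it ranged from -0.26 to 0.51 for Foxa3, from -0.60 to 1.61 for Itln1, from -5.25 to 0.54 for Gcnt3 and from -2.37 to 0.25 for Tff2. No paired analysis was possible because the groups share no replicate numbers.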
